A study of Mus musculus with 9 samples.

Results

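Nuclear pore and nuclear transport genes were followed through meiotic maturation of the mouse oocyte, in polysome-bound mRNA, the mRNA that carries ribosomes and is being translated. The genes were chosen by name: nucleoporins (Nup and Nupl with a number, Ndc1, Pom121, Tpr), importins and transportins (Ipo, Kpna, Kpnb, Tnpo), exportins (Xpo), Ran with the Ranbp genes, and the lamins (Lmna, Lmnb). This gave 57 of the 18193 genes that had a probe set with a single gene symbol on Affymetrix Mouse Genome 430 2.0 arrays. No probe set of Tpr or Nup35 met that condition, and both were not analysed here. Of the 57 genes, 7 lay below the median gene (a mean intensity of 50.29) at every stage. These were Kpna4, Lmnb2, Nup210l, Ranbp3l, Ranbp6, Ranbp10 and Ranbp17.

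There were 3 arrays for each of 3 stages, 9 in all. GV oocytes (germinal vesicle, prophase arrest with an intact nuclear envelope) were taken 0 h after human chorionic gonadotropin (hCG), MI oocytes (metaphase I) 4 h after it and MII oocytes (metaphase II, the arrested egg) 14 h after it. All mice had received hCG 48 h after PMSG, a gonadotropin from mare serum, so the groups share the hormone priming. Stage and hours after hCG change together and cannot be told apart. The labels name the stages in titles, sources and stage fields, while the MI samples carry pGVB, an unexplained term, in their description. The sources used here give neither strain nor age, nor how many oocytes or mice made up a sample. The 3 samples of a stage are described as biological replicates from independent sets, without naming what was separate. P-values therefore measure the spread between these samples, part of which may be technical.

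The nuclear pore is a channel through the nuclear envelope, built from outer and inner rings, membrane anchors, a central channel lined with phenylalanine-glycine (FG) repeats, cytoplasmic filaments and a nuclear basket. Importins and exportins carry proteins and RNA through it, and the GTPase Ran, loaded with GTP near chromatin, sets the direction by releasing import cargo and binding export cargo. The GV oocyte is transcriptionally quiet and relies on stored mRNA. Its envelope, pores and lamina come apart when meiosis resumes and are rebuilt only in the pronuclei after fertilisation, while Ran-GTP around the chromosomes also guides spindle assembly.

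Values were intensities in arbitrary units. Differences are given as log2(intensity + 16), where 16 is a pseudocount that damps noise near background and understates changes of dim genes. Passing means an adjusted p (limma, Benjamini-Hochberg over all 18193 genes) under 0.05. Stage values are the mean ± SD of n = 3 arrays, and SE is the standard error of a log2 difference. Probe sets differ in how well they hybridise, so levels are compared only within a gene. Total mRNA was not analysed here, so less mRNA and less of it on polysomes cannot be told apart, nor can fewer cells of a type and less RNA per cell.

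Array medians lay between 12.39 and 13.22 and the 95th percentiles between 1126.5 and 1458.3, with MII 3 lowest and MI 1 highest. All 14 oocyte markers were measured, and their summed intensity was 67757 to 73627.6 in GV, 61202.8 to 68492.3 in MI and 36813.2 to 44022.5 in MII. They did not move as one: from GV to MII, 3 of the 14 rose (Dazl, Oosp1 and Mos) and 7 fell, the zona pellucida genes Zp1, Zp2 and Zp3 among them. Of 22 granulosa, cumulus and theca markers, 19 were measured, with sums of 1036.7 to 1058.3 in GV, 977.9 to 1530.3 in MI (MI 3 highest) and 388 to 765.5 in MII. The gonadotropin receptor Fshr lay at 3.96 ± 5.01, 8.21 ± 5.69 and 3.33 ± 1.41 in GV, MI and MII, below the array medians, while Cyp11a1 held much of the sum, at 531 ± 351, 529.7 ± 214 and 163 ± 202. Blood, immune and endothelial markers, 12 measured of 14, summed to 418.7 to 878.5 in GV, 514 to 875.4 in MI and 660.3 to 1006.8 in MII. Of these 12, 1 rose and 1 fell from GV to MII in limma. Tek fell from a mean of 369 to 21.1 (adjusted p = 0.00609). Alas2 rose from 0.95 to 17.6 (adjusted p = 0.0327), both near background. Without Cyp11a1 the granulosa sums overlapped, at 257.8 to 906.7 in GV, 333.6 to 1192.5 in MI and 312.7 to 487.7 in MII. Of the 19 granulosa markers, 0 passed between GV and MII. Single markers moved both ways in MI. Tnfaip6 had means of 3.77, 66.4 and 9.65 in GV, MI and MII, and the immune marker Cd68 6.56, 63.3 and 19.0. Star and Amhr2 had their lowest means in MI, 62.1 and 24.8. The part of such signal in the MI comparisons was not tested. No marker was at exactly 0. The lower oocyte marker sum in MII accompanies every MII difference below, and its part in those differences was not tested.

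Between GV and MII, genes of the same pore structure or carrier family moved in both directions. Of the 57 members, 6 rose, namely Nup37, Nup155, Nup205, Nup54, Kpna3 and Ipo8. Another 9 fell, namely Nup133, Nup188, Nup214, Kpna2, Ipo4, Ipo7, Ipo9, Ran and Lmna. Among the 18193 genes, 14.3% passed in this comparison, 5.46% higher and 8.8% lower, against 26.3%, 10.5% and 15.8% of the 57 members. These shares are not matched for brightness, here or below. Array medians were 8.5 to 9.3 for the members and 5.4 to 5.8 for all genes, as log2(intensity + 16). Without the lowest 40% of genes, 1016 genes rose and 1761 fell, against 993 and 1601 of all genes. The share that passed was thus higher among brighter genes, and no excess of members is read from it. The members' median difference was 0.26 (range -4.03 to 2.22), with 33 above 0 and 24 below, beside a median of -0.02 over all genes. At an unadjusted p under 0.05 there were 22 members, against 25.6% of all genes. The 3 MII arrays lay wholly above the 3 GV arrays for 13 members and wholly below for 11, where 14.1% and 17.3% of all genes did so. The 6 higher calls became 11 after quantile normalization, 10 with arrays scaled to a common 95th percentile and 3 with a pseudocount of 1, and 3, 2, 2 and 2 without GV 2, GV 3, MII 1 or MII 3. The 9 lower calls became 5 without MII 2 or MII 3.

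Between MI and MII, 8 members fell and 0 rose. The 8 were Nup133, Nup188, Nup214, Kpna2, Ipo4, Ipo7, Ran and Lmna, the same as those that fell from GV apart from Ipo9. Of all genes, 9.32% passed, 2.54% higher and 6.78% lower, against 14% of members. The median was 0.24 (range -2.85 to 1.58), with 36 above 0, beside -0.02 over all genes. Unadjusted p-values under 0.05 were found for 24 members, 13 of them higher, against 21.4% of all genes. The absence of higher calls depended on the processing: 6 members rose after quantile normalization, 5 with arrays scaled to a common 95th percentile and 6 by the mean over a gene's probe sets, while 5, 6 and 3 fell. The 8 lower calls became 2, 2, 3, 4, 3 and 1 without MI 1, MI 2, MI 3, MII 1, MII 2 or MII 3 in turn, 2 with a pseudocount of 1 and 3 with MI and MII alone in the fit. Both comparisons use the same MII arrays and are not independent of each other.

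The first step, from GV to MI, gave 0 member calls in limma in either direction, and 0% of all genes passed. At an unadjusted p under 0.05 there were 7 members, Nup107, Nup155, Nupl2 and Tnpo3 higher and Nup133, Ipo4 and Ipo9 lower, against 7.19% of all genes. The median was 0.02 (range -1.62 to 1.13), beside 0.01 over all genes. The 3 MI arrays lay wholly above GV for 4 members and wholly below for 5, where 6.42% and 6% of all genes did so. A test of whether the second step differed from the first gave 0 member calls in either direction, and 0.209% of all genes passed (0.011% higher, 0.198% lower), with 11 members at an unadjusted p under 0.05, against 11.3% of all genes. An F test over the 3 stages passed for 13 members and 11.6% of all genes. Ipo7 and Nup37 passed in MII minus GV but not in the F test. The 13 became 7, 6, 6, 8, 4, 5 and 3 without GV 1, GV 3, MI 1, MI 2, MII 1, MII 2 or MII 3, and 2 with a pseudocount of 1.

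**Figure D1:**
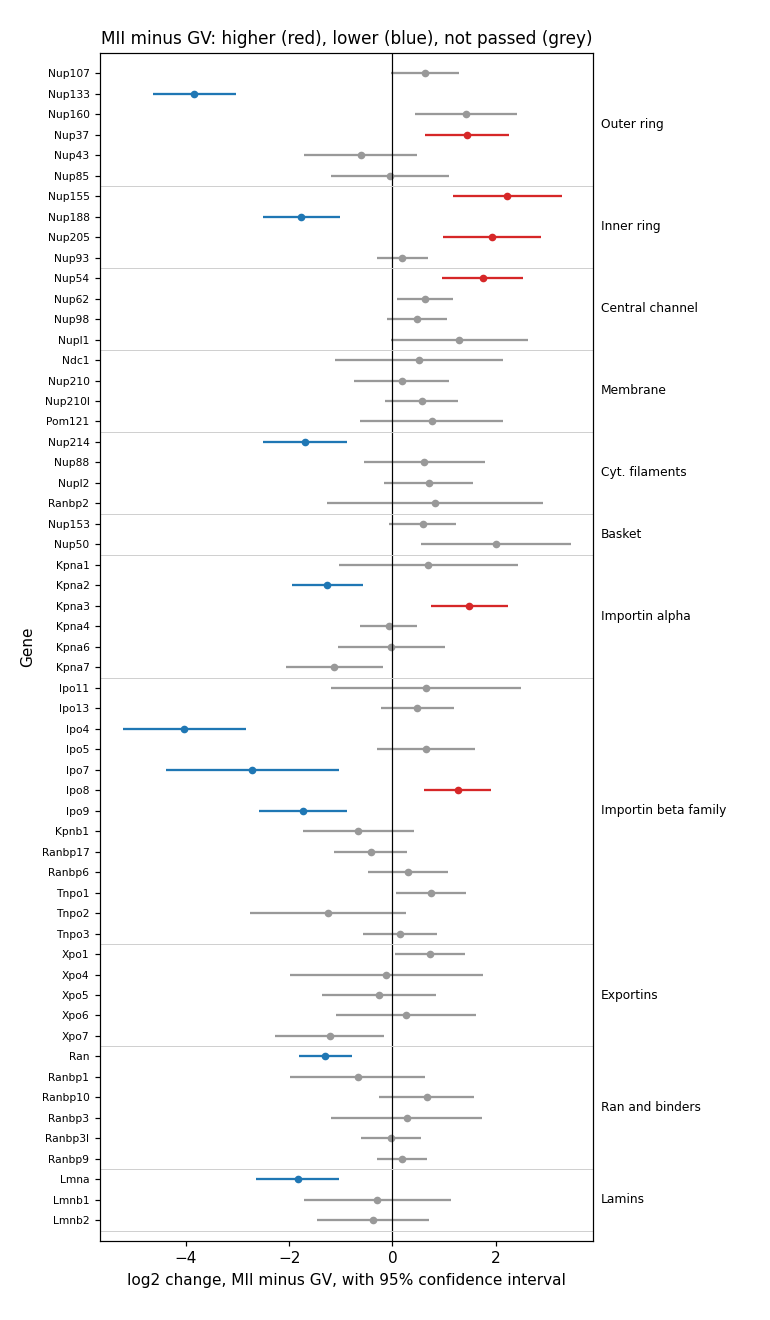
log2 difference between MII and GV, on the log2(intensity + 16) scale, for the 57 genes grouped by role, each point with its 95% confidence interval from the fit over 9 arrays (3 per stage). Members that rose are red (6), members that fell are blue (9) and those that did not pass are grey. The calls run from -4.03 (Ipo4) to 2.22 (Nup155). Rings, central channel, cytoplasmic filaments, both importin groups, the Ran group and lamins hold calls. Membrane nucleoporins, basket and exportins hold none.

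The bases around the annotated transcription start are shown for 4 members that fell (Ran, Ipo7, Nup133, Kpna2) and 2 that rose (Nup205, Nup54), picked after their values were seen, because a pyrimidine tract at the first base of an mRNA is a known element of translational control. Sequences are from RefSeq, build GRCm38.p6, 15 bases on either side of the start, 5′ to 3′ on the strand of the gene. Capitals mark each run of C and T that begins with a C followed by at least 4 bases that are C or T, with that C within 10 bases of the start. Only the sense strand was searched, and overlapping matches were joined.
Ran, chr5:129020141-129020170, plus strand: gcgcggcgccgttgctccgCCCTCTCCCgg
Ipo7, chr7:110018300-110018329, plus strand: ttggcgCTTCTCTTTCCTTTCgcgccggtt
Nup133, chr8:123949251-123949280, minus strand: gtcatctctaggcgCCTTCCCgCCCCTCag
Kpna2, chr11:106999511-106999540, minus strand: cgcagcttaggctcaaatcagccaatcgga
Nup205, chr6:35177601-35177630, plus strand: ggcaggagcgCTCTCTCagtCCTCCTCCaa
Nup54, chr5:92435185-92435214, minus strand: gttcctgcctgctccgcttagaccgggaag
Such a tract was present in 5 of 11 start windows of the members that fell (9 genes), 45.5%, and in 3 of 6 of the members that rose (5 genes), 50%. It was present in 45.5% of 55 windows of all members found in the promoter table (46 genes) and in 30.7% of all 32851 windows. With the C at the first transcribed base it was present in 2 of the 11 windows of members that fell and in 0 of the 6 of members that rose. Among all 55 member windows these 2 made 3.6%, beside 2.5% of all windows. The share was 18.6% of 70 windows of ribosomal protein genes, whose mRNAs are the textbook carriers of the tract. GC content over the 300 bases of a window had a median of 64% in members and 52.7% in all. These matches describe letters in annotated windows only.

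The outer ring, the Y-shaped scaffold complex that stacks on both faces of the pore, held a steep fall next to a rise. Nup133, a Y complex subunit with a domain that senses membrane curvature, read 403, 559 and 604 in GV, 311, 168 and 220.0 in MI, and 9.93, 19.3 and 39.6 in MII. The 3 stages did not overlap. Its mean went from 522 ± 106 in GV through 233 ± 72.5 in MI to 22.9 ± 15.2 in MII. It fell by 3.84 on the log2 scale from GV to MII (SE 0.35, 14.3-fold, adjusted p = 0.000956) and fell by 2.71 from MI to MII (SE 0.35, 6.53-fold, adjusted p = 0.00413). Both calls held without any single array and under every alternative processing. Their sizes depended on dim values. From GV the difference was -4.63 and -2.75 with pseudocounts of 1 and 64, and -1.66 with the mean of its probe sets. From MI it was -3.44, -1.76 and -1.27 in the same order. Other probe sets above the median gene gave -4.22 and -2.17 from GV. The mean also takes in dim probe sets, which lay between -0.08 and 0.20. The difference between GV and MI was -1.13 and did not pass (adjusted p = 0.543).

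Nup37, a small Y complex subunit, read 359, 468 and 309 in GV, 905, 716 and 377 in MI, and 804, 1187 and 1179 in MII. All MII arrays lay above all GV arrays, and the MI arrays overlapped both. It rose by 1.44 from GV to MII (SE 0.35, 2.72-fold, adjusted p = 0.0304), while the MI to MII difference of 0.72 did not pass (adjusted p = 0.298). The rise no longer passed without GV 1, GV 2, GV 3, MII 2 or MII 3 (adjusted p 0.0503 to 0.0954), or with a pseudocount of 1 (adjusted p = 0.084). Nup107, the binding partner of Nup133, read 696, 1139 and 878 in GV, 1045, 1877 and 1569 in MI, and 1307, 1560.4 and 1284 in MII. Its MII arrays lay above its GV arrays and overlapped MI, and the difference of 0.63 (95% interval -0.03 to 1.28) did not pass (adjusted p = 0.217). Of the 6 outer ring genes, 1 rose and 1 fell from GV to MII, with a median of 0.29 and a range from -3.84 to 1.44. The 3 others were Nup160 at 1.42 (adjusted p = 0.0634), Nup43 at -0.62 (adjusted p = 0.515) and Nup85 at -0.04 (adjusted p = 0.976).

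The inner ring, the scaffold around the central channel, moved in both directions, with 2 of its 4 measured genes higher and 1 lower from GV to MII. Nup155, which links the inner ring to the membrane, read 202, 50.2 and 122 in GV, 229, 186 and 386 in MI, and 646, 454 and 639 in MII. Levels in MII were above every GV and MI array. It rose by 2.22 (SE 0.46, 4.67-fold, adjusted p = 0.0153) from 125 ± 75.9 to 579.7 ± 109. A second Nup155 probe set differed the other way, by -0.46, and the mean over its probe sets gave 0.54, which did not pass (adjusted p = 0.277). The call was also lost without MII 1 or MII 3 (adjusted p 0.0501 to 0.0539).

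Nup205, one of the large scaffold subunits that bind Nup93, read 118, 87.0 and 64.2 in GV, 134, 124 and 94.1 in MI, and 462, 603 and 192 in MII. Every MII array exceeded every GV and MI array, and MII 3 was the lowest of the MII arrays. It rose by 1.93 from GV to MII (SE 0.41, 3.81-fold, adjusted p = 0.0181). The difference of 1.58 from MI did not pass (adjusted p = 0.0529), but passed without MII 3 (2.04, adjusted p = 0.0144) and under 5 other alternatives (adjusted p 0.018 to 0.0493). The call against GV was lost without GV 2, GV 3, MII 1 or MII 2 (adjusted p 0.0517 to 0.063).

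Nup188, the paralogous scaffold subunit that binds Nup93 in place of Nup205, went the other way. It read 1439, 848 and 1766 in GV, 1328, 893 and 949.7 in MI, and 325, 465 and 331 in MII, all MII arrays below all others. It fell by 1.77 from GV (SE 0.32, 3.4-fold, adjusted p = 0.00949) and fell by 1.46 from MI (SE 0.32, 2.75-fold, adjusted p = 0.0284). Its second probe set, dimmer in GV, differed by 1.61 from GV and 1.32 from MI, the opposite sign, and the mean of both gave -0.08 and -0.07, which did not pass (adjusted p = 0.886 and 0.907). The call against MI was also lost without MI 1, MI 2, MI 3, MII 1 or MII 3 (adjusted p 0.0544 to 0.091) and with a pseudocount of 1 (adjusted p = 0.0948). Nup93, the hub of the inner ring, did not pass, at 0.19 (adjusted p = 0.684).

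Central channel genes stood above 0 from GV to MII in all 4 cases, with a median of 0.96 (range 0.47 to 1.75), and 1 passed. Nup54, an FG nucleoporin of the central channel trimer with Nup62 and Nupl1, read 257, 506 and 195 in GV, 551, 497 and 431 in MI, and 1209, 973 and 919 in MII. The MII arrays exceeded all others, while GV 2 reached the level of MI. It rose by 1.75 (SE 0.34, 3.35-fold, adjusted p = 0.0122) from 319 ± 165 to 1034 ± 154. The call held without any single array and under every alternative, and 4 other probe sets gave 1.09 to 2.26. The difference of 1.04 from MI did not pass (adjusted p = 0.107), but passed without GV 2 (adjusted p = 0.0363), by the mean over its probe sets (adjusted p = 0.0271) and with only MI and MII in the fit (adjusted p = 0.0493).

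Nup98, a mobile FG nucleoporin that also binds mRNA export factors, read 1609, 1488 and 1613 in GV, 2427, 2241 and 1409 in MI, and 2611, 2078 and 1922 in MII. Its MII arrays lay above the GV arrays and overlapped MI. The difference of 0.47 (95% interval -0.12 to 1.06) did not pass (adjusted p = 0.311), but passed after quantile normalization (0.78, adjusted p = 0.0345). The partners of Nup54 in the trimer, named here after their values were seen, were at 0.63 for Nup62 (adjusted p = 0.133) and 1.29 for Nupl1 (adjusted p = 0.209). Neither passed. The 4 other Nup62 probe sets gave 1.21, 1.23, 1.78 and 3.01, all larger than the brightest probe set.

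Membrane nucleoporins and the nuclear basket held 0 calls in any comparison, with 0 of 4 membrane and 1 of 2 basket genes at an unadjusted p under 0.05 from GV to MII. The membrane anchors Ndc1, Nup210, Nup210l and Pom121 ranged from 0.18 to 0.76 from GV to MII, with a median of 0.54. Nup210l lay below the median gene at every stage. Nup50, a basket protein that helps release import cargo, differed by 2.00 (95% interval 0.55 to 3.45) and did not pass (adjusted p = 0.0746). It was 433 ± 179 in GV and 2091 ± 1710.2 in MII, with MII 1 alone at 4048. Other Nup50 probe sets above the median gene gave smaller differences, 0.98 and 0.96. Nup50 is named after its values were seen, as the largest difference, by the probe set used, among the members that did not pass. Its basket partner Nup153 was at 0.58 (adjusted p = 0.246).

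At the cytoplasmic face, 1 of 4 genes fell. Nup214, where mRNA export complexes dock, read 3553, 2772 and 3178 in GV, 5278, 3293 and 2197 in MI, and 1319, 791 and 849 in MII. No MII array reached the lowest GV or MI array. It fell by 1.70 from GV (SE 0.35, 3.24-fold, adjusted p = 0.0158) and fell by 1.79 from MI (SE 0.35, 3.46-fold, adjusted p = 0.019). Its second, much dimmer probe set differed by 0.48 from GV and 0.31 from MI, and the mean of both gave -0.61 and -0.74, which did not pass (adjusted p = 0.636 and 0.575). Calls were also lost without GV 1, MII 2 or MII 3 against GV (adjusted p 0.0521 to 0.0567) and without MI 2, MII 2 or MII 3 (adjusted p 0.0588 to 0.0653), a pseudocount of 1 (adjusted p = 0.0573) or only MI and MII fitted (adjusted p = 0.0557) against MI.

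Ranbp2, the giant filament protein that binds Ran and holds a SUMO ligase, read 120.0, 1586 and 99.5 in GV, 179.8, 205 and 234 in MI, and 725, 345 and 514 in MII. GV 2 stood far above the other GV arrays, and the MII arrays lay above all MI arrays. The difference from GV of 0.83 (95% interval -1.26 to 2.92) did not pass (adjusted p = 0.677). Without GV 2 it was 2.06 and passed (adjusted p = 0.0133). The other filament genes, Nup88 at 0.62 and Nupl2 at 0.70, did not pass (adjusted p = 0.552 and 0.307).

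Among the 6 importin alpha genes, the adaptors that read the classical nuclear localisation signal and hand cargo to importin beta, 1 rose and 1 fell. Kpna2, one of these adaptors, read 3439, 2763 and 3969 in GV, 3606, 3176 and 4159 in MI, and 1949, 1436 and 948 in MII. GV and MI overlapped, and all MII arrays lay below both. It fell by 1.38 from MI (SE 0.30, 2.6-fold, adjusted p = 0.0264) and fell by 1.27 from GV (SE 0.30, 2.41-fold, adjusted p = 0.0261). The call against GV was lost without GV 1, GV 3, MII 2 or MII 3 (adjusted p 0.0637 to 0.0834), after quantile normalization (adjusted p = 0.0679), scaled to the 95th percentile (adjusted p = 0.0538), with a pseudocount of 1 (adjusted p = 0.104) and with GV and MII alone (adjusted p = 0.0566). The one against MI was lost without MI 1, MI 2, MI 3, MII 2 or MII 3 (adjusted p 0.0634 to 0.0739), after quantile normalization (adjusted p = 0.0525), with a pseudocount of 1 (adjusted p = 0.107) and with MI and MII alone (adjusted p = 0.0614).

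Kpna3, of another importin alpha subfamily, read 533, 295 and 391 in GV, 779, 465 and 818 in MI, and 1281, 869.5 and 1323 in MII. All MII arrays lay above all GV and MI arrays. It rose by 1.49 from GV (SE 0.32, 2.81-fold, adjusted p = 0.0192), its other probe sets gave 2.00 and 2.78, and the mean of all gave 2.09. The call was lost without GV 2, GV 3, MII 1 or MII 3 (adjusted p 0.0575 to 0.0669) and with a pseudocount of 1 (adjusted p = 0.0666). The difference of 0.76 from MI did not pass (adjusted p = 0.226), but the mean of all probe sets did (1.33, adjusted p = 0.0272). Kpna7, the importin alpha of oocytes and early embryos, read 2259.6, 2677 and 3417 in GV, 5130.4, 2326 and 2664 in MI, and 2006, 839 and 1156 in MII. Its MII arrays were below all others, yet the difference from GV of -1.13 (95% interval -2.07 to -0.18) did not pass (adjusted p = 0.121), nor did that from MI of -1.33 (adjusted p = 0.0907). Kpna1, Kpna4 and Kpna6 did not pass, at 0.70, -0.07 and -0.03 from GV to MII.

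**Figure D2:**
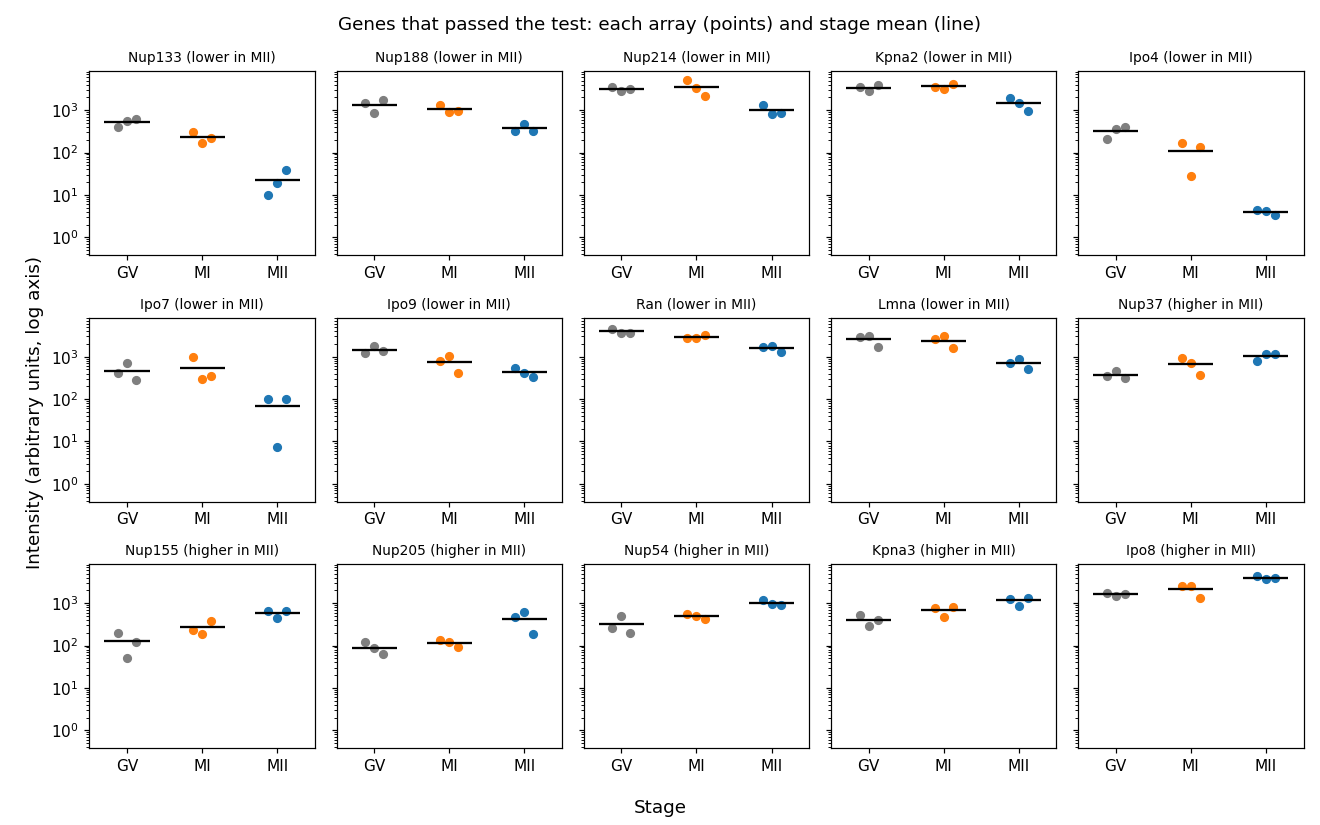
Intensity (arbitrary units, log axis) on each array by stage for the 15 genes that passed in MII minus GV, 3 points per stage with the stage mean as a line. In Nup133, Ipo4 and Ran the 3 stages are separate. By the probe set used, Ipo4 drops from a mean of 321 ± 102 in GV to 3.92 ± 0.52 in MII. The 6 genes that rose have every MII point above every GV point.

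The importin beta family, carriers that bind cargo directly or through an adaptor, had 13 measured genes, of which 1 rose and 3 fell from GV to MII. Ipo4, a carrier of histones and ribosomal proteins, read 208, 349.8 and 406 in GV, 166, 27.8 and 134 in MI, and 4.33, 4.09 and 3.33 in MII. By this probe set the MII arrays were below the array medians, so it read only background there. It fell by 4.03 from GV (SE 0.52, 16.4-fold, adjusted p = 0.00265). With MII at background, the size of that difference is set by the pseudocount, ranging from -2.47 with 64 to -5.99 with 1. It fell by 2.42 from MI (SE 0.52, 5.34-fold, adjusted p = 0.026), with the MI arrays already below the GV arrays (-1.62, adjusted p = 0.566). A second probe set, dimmer in GV, went from a mean of 75.8 in GV to 45.8 in MII, a difference of -0.58. Its MII mean lay above the array medians, so a loss to background was seen with the probe set used only. The call against GV held without any single array and under every alternative. The mean of probe sets gave -2.31 from GV. The difference from MI was -3.06 without MI 2, and its call was lost without MI 1, MI 3 or any 1 MII array (adjusted p 0.068 to 0.0795), with a pseudocount of 64 (adjusted p = 0.0821), with the mean of probe sets (adjusted p = 0.181) and with MI and MII alone (adjusted p = 0.0623).

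Ipo7, a carrier of ribosomal proteins, read 406, 697 and 275 in GV, 1006, 298 and 347 in MI, and 99.3, 7.47 and 98.2 in MII. All MII arrays lay below all others, and MII 2 was at background. It fell by 2.72 from GV (SE 0.73, 6.57-fold, adjusted p = 0.0428) and fell by 2.85 from MI (SE 0.73, 7.23-fold, adjusted p = 0.0479). Leaving out any 1 of the 9 arrays ended the call against MI (adjusted p 0.0625 to 0.131), and leaving out any 1 but MI 1 ended that against GV (adjusted p 0.0548 to 0.127); all other alternatives that ended them gave adjusted p from 0.0509 to 0.0961. Without MII 2 the differences were -1.95 from GV and -2.09 from MI. The difference from MI was -2.13 with a pseudocount of 64, and that from GV -0.91 with the mean of probe sets, dim ones included.

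Ipo8, the close relative of Ipo7, went the other way and read 1779, 1476 and 1661 in GV, 2575, 2485 and 1327 in MI, and 4378, 3625 and 3879 in MII. MII exceeded all GV and MI arrays. It rose by 1.26 from GV (SE 0.28, 2.4-fold, adjusted p = 0.0217), from 1639 ± 152 to 3961 ± 383. The difference of 0.95 from MI did not pass (adjusted p = 0.0821), but passed after quantile normalization (adjusted p = 0.0124) and scaled to the 95th percentile (adjusted p = 0.0173). A second bright probe set gave 0.74 against GV. The call against GV was lost without GV 2, GV 3, MII 1 or MII 3 (adjusted p 0.0594 to 0.0693), with a pseudocount of 1 (adjusted p = 0.0989) and with the mean of probe sets, a dim one included (0.57, adjusted p = 0.29).

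Ipo9, which carries core histones, read 1191, 1772 and 1371 in GV, 788, 1036 and 401 in MI, and 536, 409.9 and 328 in MII. Its MI arrays lay below GV and overlapped MII. It fell by 1.74 from GV to MII (SE 0.37, 3.33-fold, adjusted p = 0.0181), and its other probe sets gave -1.85 and -2.04. Neither single step passed, at -1.03 from GV to MI (adjusted p = 0.623) and -0.71 from MI to MII (adjusted p = 0.335). The call was lost without GV 2, GV 3, MII 2 or MII 3 (adjusted p 0.0511 to 0.0648).

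Kpnb1, importin beta itself, read 1358, 3869 and 1863 in GV, 1202, 813 and 2234 in MI, and 1461, 1465 and 1148 in MII. The stages overlapped, with GV 2 highest. The difference from GV of -0.66 (95% interval -1.74 to 0.42) did not pass (adjusted p = 0.469). Its 3 other probe sets gave 0.56, 0.70 and 0.93. The mean of all 4 gave 0.38 (adjusted p = 0.536), the opposite sign, so these arrays give no direction for it. The probe set used, unlike the 3 others, is of a kind that can also bind related transcripts, and the share of such signal was not tested. The 8 other genes of the family, among them Ipo5, Ipo11, Ipo13 and the transportins Tnpo1, Tnpo2 and Tnpo3, did not pass. Tnpo1, named after its values were seen, was nearest at 1.04 from MI to MII (adjusted p = 0.0671).

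Exportins held 0 calls among 5 genes in any comparison, with 2 at an unadjusted p under 0.05 from GV to MII, and ranged from -1.21 to 0.73 there. Xpo1, the main exporter of proteins with a leucine-rich signal, read 907, 772 and 861 in GV, 1058, 1356 and 606 in MI, and 1326, 1451 and 1477 in MII. Its MII arrays lay above its GV arrays and overlapped MI. The difference of 0.73 (95% interval 0.06 to 1.41) did not pass (adjusted p = 0.159). It passed after quantile normalization (0.96, adjusted p = 0.0347), scaled to the 95th percentile (0.95, adjusted p = 0.0354) and without MI 3 (0.73, adjusted p = 0.0433). Xpo7, named after its values were seen, was at -1.21 (adjusted p = 0.134), with all MII arrays below all GV arrays. Xpo4, Xpo5 and Xpo6 were at -0.12, -0.26 and 0.26 by the probe set used. A second probe set above the median gene gave 2.85 for Xpo4, against the sign of the one used, and -1.22 for Xpo5. The probe sets of Xpo4 thus give no common direction.

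Ran, the GTPase that powers nuclear transport and also acts in spindle assembly, read 4552, 3607 and 3620.5 in GV, 2759, 2802 and 3295 in MI, and 1689.5, 1824 and 1269 in MII. The 3 stages did not overlap, with GV highest and MII lowest. It fell by 1.30 from GV to MII (SE 0.22, 2.46-fold, adjusted p = 0.00723). Its 4 other bright probe sets gave -1.13, -1.25, -1.38 and -1.90. The call against GV held without any single array and was lost with a pseudocount of 1 (adjusted p = 0.0701). The smaller fall of 0.89 from MI (SE 0.22, 1.86-fold, adjusted p = 0.0432) was lost without any 1 of the 9 arrays (adjusted p 0.0553 to 0.122) and under 7 other alternatives (adjusted p 0.066 to 0.25). The GV to MI difference of -0.41 did not pass (adjusted p = 0.807). Ran has processed copies in the genome. The probe set used and those at -1.13, -1.25 and -1.38 are of a kind that can also bind related transcripts. The one at -1.90, dimmer with a mean of 157 in GV, is not of that kind. The share of such signal was not tested.

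Ranbp1, which speeds the release of Ran from transport complexes, read 432, 1144 and 375 in GV, 256, 468 and 289 in MI, and 442, 595 and 162 in MII. The stages overlapped, GV 2 being highest, and the difference of -0.68 from GV (95% interval -1.99 to 0.63) did not pass (adjusted p = 0.559). Ranbp3, Ranbp3l, Ranbp9 and Ranbp10 did not pass either, and lay between -0.03 and 0.67 from GV to MII. Both ends of that range came from genes below the median gene at every stage, Ranbp3l and Ranbp10. Ran was thus the 1 of 6 genes in this group that passed.

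Nuclear lamins form the meshwork under the inner nuclear membrane, and 1 of 3 fell. Lmna, which encodes lamins A and C, read 2928, 3011 and 1715 in GV, 2594, 3005 and 1600.2 in MI, and 697, 884 and 509 in MII. GV and MI overlapped throughout, and every MII array was below both. It fell by 1.84 from GV (SE 0.35, 3.58-fold, adjusted p = 0.0115) and fell by 1.75 from MI (SE 0.35, 3.36-fold, adjusted p = 0.0205). Of its 3 other probe sets above the median gene, a pair gave -2.51 and -3.26, and the third gave 0.25. The call against GV held without any single array and under every alternative, while that against MI no longer passed when MI 1, MI 2, MII 1 or MII 3 was left out (adjusted p 0.0545 to 0.0731) and with a pseudocount of 1 (adjusted p = 0.0618). With the mean of probe sets the difference from MI was -1.09. Lmnb1, the lamin present in most cells, read 242, 378 and 292 in GV, 62.8, 187 and 512 in MI, and 264, 172 and 307 in MII. Its stages overlapped, and the difference of -0.29 (95% interval -1.71 to 1.13) did not pass (adjusted p = 0.855). Lmnb2, below the median gene at every stage, was at -0.38.

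**Figure D3:**
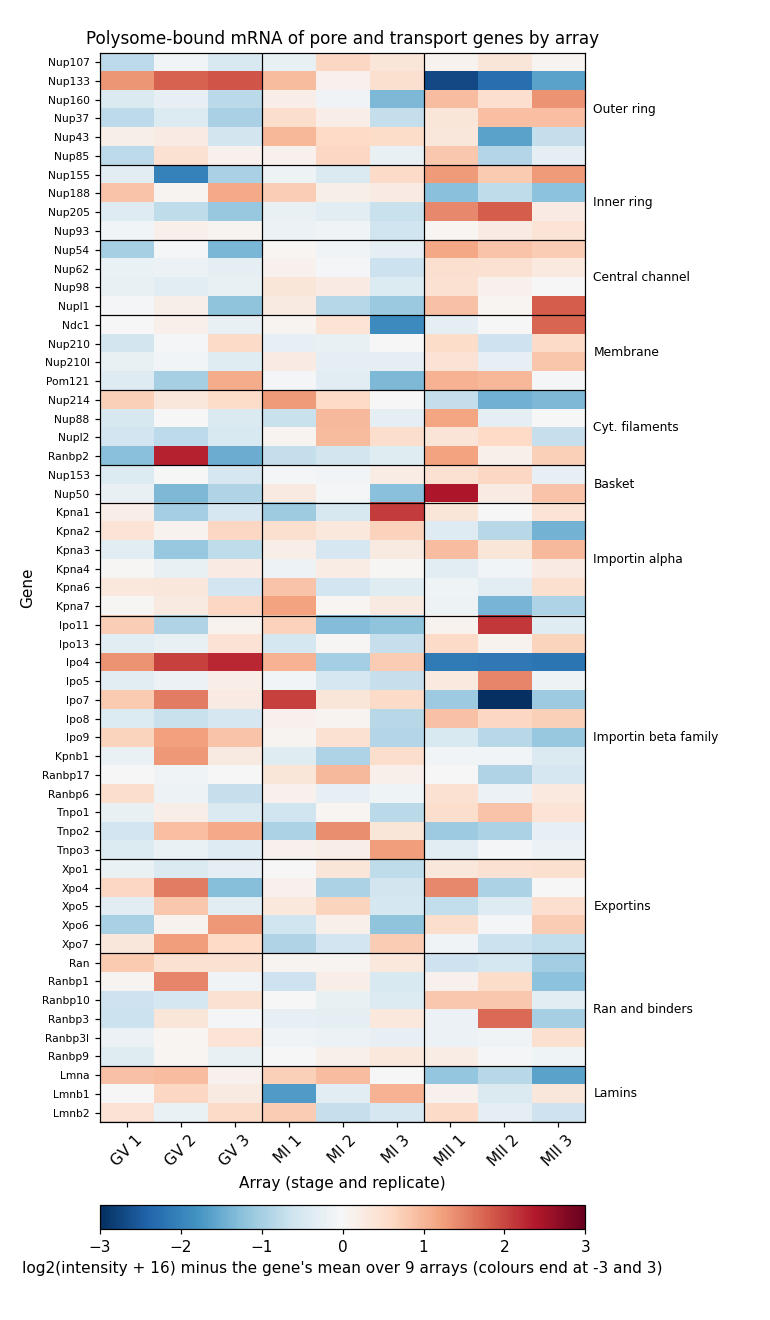
Each row is 1 of the 57 genes, grouped by role, and each column 1 of the 9 arrays; colour is log2(intensity + 16) minus the mean of that gene over the 9 arrays, ending at -3 and 3. Nup133 and Ipo4 turn to low values in all 3 MII arrays, Nup155 and Nup205 to high values, and Ranbp2 stands out in GV 2 alone.

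In 4 pairs of paralogues or complex partners, the members were called in opposite directions. Nup205 rose where the brightest probe set of Nup188 fell, Nup37 rose where Nup133 fell, Kpna3 rose where Kpna2 fell, and Ipo8 rose where Ipo7 fell. Other such pairs had the same sign, among them Nup54 with Nup62 and Nupl1, and Nup50 with Nup153. The 4 pairs were picked for this pattern after the values were seen, and the difference within a pair was not tested. Probe sets of 1 gene were not always of one sign either. The 15 members that passed from GV to MII had 23 further probe sets that reached the median gene, in 12 genes, of which 19 had the sign of the probe set used. The 4 of opposite sign belonged to Nup155, Nup188, Nup214 and Lmna. Probe sets can bind different ends or isoforms of a transcript, and which they bind was not analysed here.

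**Figure D4:**
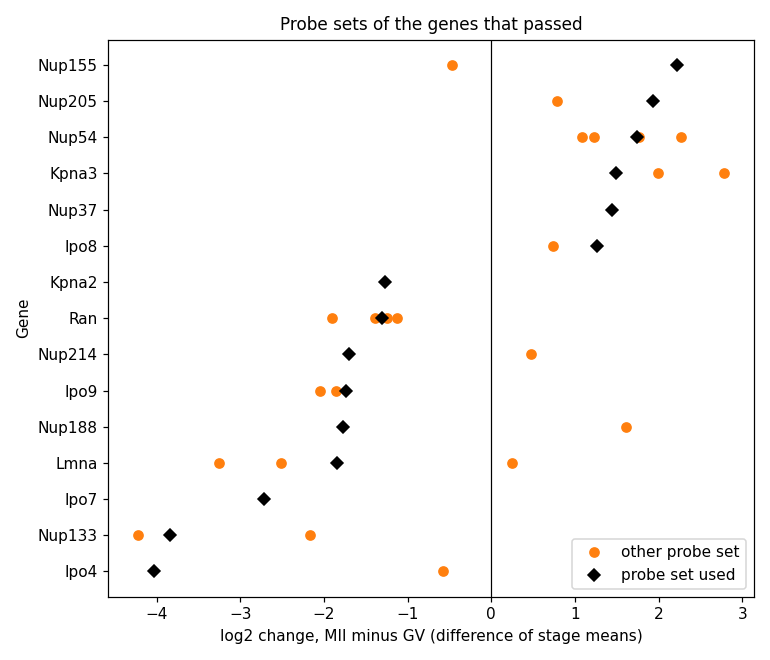
log2 difference between MII and GV (difference of stage means of 3 arrays each) for probe sets of the genes that passed. Only probe sets that reached the median gene are drawn, the one used for the gene and its others marked apart. Nup54, Kpna3, Ipo9 and Ran have all bright probe sets on one side of 0, while Nup188 has one at -1.77 and one at 1.61.

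Other genes of the pathway, whose names the rule does not match, were taken from lists of pore subunits, the Ran cycle and carriers, the envelope and lamina, mRNA export and SUMO enzymes. Of 58 measured, 11 rose and 7 fell from GV to MII (median -0.03), and 2 rose and 8 fell from MI to MII (median 0.00). Over all genes, 5.46% rose and 8.8% fell from GV, and 2.54% and 6.78% from MI. Without 1 array, the 11 became 6, 5, 7 and 7 (GV 1, GV 3, MII 1, MII 2), the 7 became 3 (GV 2), the 2 became 1 (any MI array, MII 1 or MII 3), and the 8 became 2, 2, 3 and 2 (MI 1, MI 2, MII 1, MII 3). Among 11 pore subunits with other names, 4 rose and 1 fell from GV. Gle1, which activates the mRNA export helicase at the pore, went from 1874 ± 124 in GV through 2644 ± 319 to 5260.0 ± 78.2 in MII, higher by 1.48 than GV (adjusted p = 0.00224) and by 0.99 than MI (adjusted p = 0.0151). The second was lost without MI 1 or MI 2 (adjusted p 0.0526 to 0.056), with a pseudocount of 1 (adjusted p = 0.18) and without the lowest 40% of genes (adjusted p = 0.0689). Seh1l, an outer ring subunit, rose from 40.1 ± 45.8 to 527 ± 86.8 (log2 3.56, adjusted p = 0.00427), with GV 1 at 93.0 and GV 2 at 12.3, near the array median. Its size moved with the processing, from 0.91 with the mean of its probe sets to 2.58 and 4.27 with pseudocounts of 64 and 1, and was 4.18 without GV 1. Ahctf1, which seeds new pores on chromatin, rose from 402 ± 214 to 2805 ± 1338 (log2 2.74, adjusted p = 0.018), a call lost without GV 2, GV 3, MII 1 or MII 3 (adjusted p 0.0552 to 0.0642). With the mean of its probe sets it was 1.34.

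Of 8 Ran-cycle genes and carriers with other names, 2 rose and 1 fell from GV. Rcc1, the chromatin-bound factor that loads Ran with GTP, rose from 186 ± 31.8 in GV and 206 ± 25.5 in MI to 483 ± 152 in MII, by 1.27 from GV (adjusted p = 0.0155) and 1.13 from MI (adjusted p = 0.0336). It went opposite to Ran. Without GV 2 the first did not pass (adjusted p = 0.0544), and the second did not pass without GV 3, MI 1, MI 2, MI 3, MII 1 or MII 3 (adjusted p 0.0522 to 0.0857). A pseudocount of 1 ended both (adjusted p = 0.0793 and 0.149), and MI and MII alone (adjusted p = 0.0713) or leaving out the lowest 40% of genes (adjusted p = 0.0666) ended the second. Nmd3, the export adaptor of the large ribosomal subunit, went from 356 ± 94.7 to 3502 ± 3685 (log2 2.76, adjusted p = 0.0224), with MII arrays at 1372, 1378 and 7757. Without MII 3 the difference was 1.93 and passed (adjusted p = 0.00775), and with the mean of its probe sets it was 1.03. The call was lost without GV 1 or GV 3 (adjusted p 0.0669 to 0.0706) and with GV and MII alone (adjusted p = 0.0596). Snupn, the import adaptor of spliceosomal particles, fell from 1123 ± 187 and 1386 ± 622 to 244 ± 143, a log2 difference of -2.29 from GV (adjusted p = 0.0203) and -2.49 from MI (adjusted p = 0.021). Those calls were lost without GV 1 or GV 2 (adjusted p 0.0561 to 0.0659), and, against MI, after leaving out MI 1, MI 2, MII 2 or MII 3 (adjusted p 0.051 to 0.0735) or with MI and MII alone (adjusted p = 0.062).

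In the envelope and lamina, 3 of 19 genes rose and 0 fell from GV (1 of 19 lower at an unadjusted p under 0.05), and 1 fell from MI. Lbr, the lamin B receptor, rose from 635 ± 248 to 2181 ± 193 (log2 1.84, adjusted p = 0.0145). Tor1a, an ATPase of the envelope lumen, rose from 1101 ± 41.5 to 1995 ± 187 (log2 0.85, adjusted p = 0.0249), a call lost without GV 1, GV 2, GV 3, MII 1 or MII 2 (adjusted p 0.0602 to 0.0778), with a pseudocount of 1 (adjusted p = 0.217) and without the lowest 40% of genes (adjusted p = 0.0948). Banf1, which ties chromatin to the envelope, fell from 1869 ± 358 in MI to 778 ± 136 in MII (log2 -1.24, adjusted p = 0.0195), which no longer passed after leaving out MI 1, MI 2, MII 1 or MII 3 (adjusted p 0.0608 to 0.0698) and with a pseudocount of 1 (adjusted p = 0.117).

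Of 15 mRNA export genes, 2 rose and 4 fell from GV, and 4 fell from MI. Alyref, the adaptor that marks spliced mRNA for export, fell from 1139.8 ± 409 in GV and 840.1 ± 74.7 in MI to 239 ± 52.5 in MII, log2 differences of -2.15 (adjusted p = 0.00286) and -1.77 (adjusted p = 0.00926). Thoc3, a subunit of the THO complex, fell from 2553 ± 1379.5 to 343 ± 191 (log2 -2.84, adjusted p = 0.0103), and Sarnp, which binds the same export machinery, rose from 137 ± 83.5 to 937 ± 299 (log2 2.72, adjusted p = 0.0081). Sumo3, the 1 of 5 SUMO genes that passed, fell from 2255 ± 932 in GV and 2325 ± 1236 in MI to 199 ± 86.1 in MII (log2 -3.39 and -3.33, adjusted p = 0.00593 and 0.00964). The calls of Seh1l, Lbr, Alyref, Thoc3, Sarnp and Sumo3 held without any single array and under every alternative tried. With the mean of probe sets the differences were smaller, from GV -1.10 for Alyref, -1.75 for Thoc3 and -1.49 for Sumo3, and from MI -1.02 for Alyref and -1.40 for Sumo3.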

How the data were processed

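Polysome-bound mRNA of 9 mouse oocyte samples was isolated on columns, then reverse-transcribed, amplified with a kit made for degraded RNA and hybridised, per the labels' protocols. The table the authors deposited holds 1 linear intensity per probe set and array. How probes were summarised, background-corrected or scaled is not given in the sources used here, and detection calls are not used here. Every intensity was used as deposited. No array pair was identical (highest correlation 0.934).

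Of 45101 probe sets, 64 controls were left out, and 34945 had 1 symbol in the platform annotation, 932 several and 9160 none. For 9010 genes with over 1 probe set, the one with the highest mean log2 value stood for the gene. Identifiers matched RefSeq (GRCm38.p6) for 18032 of 18193 genes and for 57 of 57 members. The members had 152 probe sets with 1 symbol, and 3 with several were not used.

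Values were transformed to log2(intensity + 16) with no filter. One model of 3 stage means over 9 arrays was fitted in limma 3.58.1 (R 4.3.3), with two-sided contrasts, an F test and Benjamini-Hochberg adjustment over 18193 genes. Figures and start windows were made in Python 3.11.15. The number of arrays limits the precision.

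Members, gene lists and tests were chosen with earlier results of these data known. Values on every array are given for members that passed in any stage comparison and for a panel of Ran, Ranbp1, Ranbp2, Kpnb1, Kpna2, Kpna7, Xpo1, Nup107, Nup98, Lmna and Lmnb1. Up to 3 genes per list of other pathway genes were named where they passed, by smallest p. Alternatives were quantile normalization, centring on the median, scaling to the 95th percentile, pseudocounts of 1 and 64, leaving out the lowest 40% of genes, the mean of all probe sets, a replicate block, only the 2 stages compared, and leaving out each array.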

Additional observations from a re-analysis of the deposited data

How the results depend on the processing

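The count of members called depended on the processing. Of the 15 members called from GV to MII, 6 passed without every single array in turn and 4 under all 18 alternatives (Nup133, Ipo4, Nup54 and Lmna). Of the 8 called from MI to MII, Nup133 did so. No called member changed sign under these alternatives. Some of them cannot change a difference, such as leaving out an MI array in MII minus GV. Single other probe sets did have the opposite sign from GV to MII, at -0.46 for Nup155, 1.61 for Nup188, 0.48 for Nup214 and 0.25 for Lmna. Over the named genes, 960 alternative values kept their side of the threshold, 164 lost the call and 27 gained one. Kpnb1 in MII minus GV turned to 0.38 when all its probe sets were averaged. The members' medians ranged from -0.10 to 0.12 (MI minus GV), 0.09 to 0.40 (MII minus MI) and 0.12 to 0.47 (MII minus GV). In MI minus GV and in the difference between the steps, no setting gave a call.

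Members higher in MII than MI (0) became 6 with quantile normalization, 5 with the 95th percentile, 1 without the lowest 40% of genes, 6 with the mean of probe sets, 1 with the 2 stages alone, and 0 to 1 without 1 array. Those lower (8) became 5 with quantile normalization, 2 with a pseudocount of 1, 3 with the mean of probe sets, 3 with the 2 stages alone and 1 to 6 without 1 array. Higher than GV (6) became 11, 10 and 3 with quantile normalization, the 95th percentile and a pseudocount of 1, and 2 to 8 without 1 array; lower (9) became 5 to 9 without 1 array. The F test (13) became 2 with a pseudocount of 1 and 3 to 13 without 1 array. Pathway genes outside the rule, higher in MII than MI (2), became 8, 9, 0, 4, 1 and 1 with quantile normalization, the 95th percentile, pseudocounts of 1 and 64, without the lowest 40% of genes and with the 2 stages alone, and 1 to 3 without 1 array. Those lower (8) became 5, 4 and 4 with the 95th percentile, a pseudocount of 1 and the 2 stages alone, and 2 to 7 without 1 array. Higher than GV (11) became 7 with a pseudocount of 1 and 5 to 13 without 1 array; lower (7) became 4 with the 2 stages alone and 3 to 9 without 1 array. The causes were not tested.

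The labels do not say what a replicate number shares across stages, and not every same-numbered pair correlated above 0.1: deviations from the stage means of same-numbered arrays correlated at 0.009 to 0.209 (over 0.1 in 5 of 9 pairs), others at -0.232 to 0.105, and an array correlated best with its own number in 15 of 18 cases, a hint of pairing from the data and not from the design. With the replicate block, members higher in MII than MI became 2 and lower 5, and pathway genes higher became 4. Among named members, it ended the calls of Ipo7 in both comparisons and of Nup188 and Ran from MI, and Nup205 passed from MI. The other counts moved by less than 1.5 times.

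Scaling also moved the split over all genes. Of those called from MI to MII, 27.3% were higher, against 42.2% after quantile normalization, 41.3% with the 95th percentile and 16.6% with a pseudocount of 1; from GV to MII these shares were 38.3%, 47%, 48.1% and 31.7%. Without the lowest 40% of genes the median over all genes was -0.103 from MI and -0.133 from GV. Signals near background, such as the probe set used for Ipo4 in MII, bound a fold from one side only.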
